A study of Mus musculus with 24 samples.

Results

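The MYC, MAX and MXD network is a small set of transcription factors that compete for 1 shared partner. Its 8 genes, Myc, Mycn, Max, Mxd1, Mxi1, Mxd3, Mxd4 and Mnt, were taken by name and followed across 8 groups of mouse spleen B cells. They had 19 probe sets annotated to a single gene, and each gene was represented by its brightest probe set over the 24 arrays, with the other probe sets kept as a check. Of the 8 genes, 7 had signals high enough to be tested, among 11208 genes tested of 18193 with a probe set. The exception was Mycn.

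All arrays carried RNA from spleens of female C57BL/6 mice aged 8 to 10 weeks, or that age when immunized, with 3 arrays per group. Naive follicular B cells were sorted as B220+ AA4.1- CD21int CD23+ and marginal zone B cells as CD21high CD23low. A further group was follicular B cells kept in culture for 6 h with 10 µg/ml F(ab')2 antibody against IgM and 2 µg/ml antibody against CD40. The other 4 groups of activated cells and the plasma cells came from mice given the hapten NP coupled to a carrier protein in alum, and were sorted as cells binding the related hapten NIP. These were B220+ IgG1+ CD38+ PNA- memory cells at day 7 and at day 40, CD38dull PNA+ germinal center cells at day 7 and at day 40, and IgG1low CD138+ Igλ+ plasma cells at day 7. Stimulated cells had been cultured and follicular cells had not, so culture and stimulation cannot be told apart. Naive cells and cells of immunized mice were enriched with different antibody mixes, which cannot be told apart from the immune state either. The labels do not say if replicates were separate mice, so p-values measure only the spread between these samples, which may be technical. In sorted bulk RNA, fewer cells with a transcript and less of it per cell cannot be told apart. Stimulated marginal zone cells were not analysed here.

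MYC and its relative MYCN bind DNA only as a pair with MAX, usually at the palindromic E-box CACGTG, and raise transcription of genes for ribosomes, nucleotides and polyamines. The MXD proteins and MNT pair with MAX as well, bind the same sites and recruit SIN3 and histone deacetylases, so they oppose MYC. In B cells MYC is known as an early response to antigen and as a mark of germinal center cells selected to go on dividing, and MXD1 is known from cells that stop dividing as they mature.

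The promoters of 4 genes are shown because these genes fall into pairs below: Mxd1 and Mxd4 were lowest in stimulated cells, and Max and Mnt were lowest in plasma cells. The sequences are those of RefSeq on GRCm38.p6, read 5′ to 3′ on the strand of the gene up to its annotated start, in lower case with the E-box in capitals. Max is on chr12:76962246-76962498, minus strand, and includes the 3 bases after the start. Mnt is on chr11:74830674-74830923, plus strand, Mxd4 on chr5:34187711-34187960, minus strand, and Mxd1 on chr6:86669160-86669409, minus strand.
Mxd1: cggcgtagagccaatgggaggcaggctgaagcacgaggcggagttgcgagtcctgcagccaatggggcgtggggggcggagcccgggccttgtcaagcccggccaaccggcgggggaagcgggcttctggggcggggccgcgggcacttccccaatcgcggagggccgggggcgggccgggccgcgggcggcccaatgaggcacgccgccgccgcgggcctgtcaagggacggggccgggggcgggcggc
Mxd4: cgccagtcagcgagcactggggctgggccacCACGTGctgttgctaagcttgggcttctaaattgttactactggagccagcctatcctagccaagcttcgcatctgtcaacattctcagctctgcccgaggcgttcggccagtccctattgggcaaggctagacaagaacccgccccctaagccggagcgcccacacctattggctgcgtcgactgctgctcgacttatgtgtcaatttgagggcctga
Max: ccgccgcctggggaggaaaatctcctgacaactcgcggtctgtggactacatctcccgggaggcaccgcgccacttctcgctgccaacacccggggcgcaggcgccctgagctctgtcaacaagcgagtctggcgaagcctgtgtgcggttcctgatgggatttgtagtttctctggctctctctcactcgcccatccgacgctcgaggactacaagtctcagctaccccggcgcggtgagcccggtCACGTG
Mnt: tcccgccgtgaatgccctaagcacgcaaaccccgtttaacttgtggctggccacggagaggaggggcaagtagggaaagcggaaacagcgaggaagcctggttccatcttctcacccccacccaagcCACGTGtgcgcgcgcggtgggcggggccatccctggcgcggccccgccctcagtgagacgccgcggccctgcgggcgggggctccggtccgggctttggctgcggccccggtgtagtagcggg

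CACGTG reads the same on both strands, and it was searched from 250 bases before to 50 bases after each start. It began at position -3 in Max, so that it spans the start, at -123 in Mnt and at -219 in Mxd4, and these letters are not in the window of Mxd1. Of the 7 genes with an entry, 3 held the motif, in 3 of 9 windows; Mycn, Mxi1 and Mxd3 were the others without it. Across RefSeq it was found in 7.15% of 32851 windows and in 8.09% of 27025 genes. A match is a description of the letters and not of binding.

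Signals are GCRMA values on the log2 scale, where 1 unit is a factor of 2 and 2.15 is the lowest value. Between 36.8% and 43.1% of the probe sets of an array lay at that floor. Array medians were 2.39 to 2.86, close to the floor, and a gene was tested where it exceeded them on at least 3 arrays. At background means at or below the array median on every array of a group. Across probe sets, which are not replicates, the 24 pairs of same-group arrays had r of 0.974 to 0.996. Of the markers that bear on the labels, Cr2, the gene of CD21, was highest in marginal zone cells and Fcer2a, the gene of CD23, in follicular cells, Gcsam was highest in germinal center cells, Sdc1, the gene of CD138, in plasma cells and Cd80 in both memory groups. The mean over 2 follicular markers, Fcer2a among them, did not set follicular cells apart from memory cells. It was 12.75 to 12.90 in follicular cells, 12.84 to 13.15 in memory cells of day 7 and 13.04 to 13.26 at day 40. Of the memory samples at day 7, replicate 1 stood apart. Its mean level over 6 germinal center markers was 10.98 against 6.59 and 7.14 in replicates 2 and 3, and Gcsam was 9.21 against 2.26 and 2.40. Results on memory cells of day 7 are given without it below where that ends or adds a call or moves a called change by over 1.5 times. Memory cells of day 40 were also above follicular cells in these markers, with mean levels of 9.57, 9.57 and 7.65 against 5.42 to 5.73. Germinal center replicate 1 of day 40 stood apart in another list, with a mean over 8 myeloid markers of 8.26 against 4.15 and 3.99.

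Over the 8 groups, 6 of the 7 tested genes varied, by limma's moderated F test with a Benjamini-Hochberg adjusted p under 0.05 and a range of group means of at least 1. In the same test 80.4% of all genes varied. The spread of group means was 8.70 for Mxd4, 6.93 for Mxd1, 5.53 for Myc, 4.73 for Mxi1, 2.42 for Mnt and 1.52 for Max, against a median of 2.13 over all genes. Mxd3 had a range of 0.78 on its brightest probe set, below the minimum, with an adjusted p of 0.000193. Adjusted F test p-values of the others ran from 2.64e-14 for Mxd4 to 1.07e-06 for Max. On their brightest probe sets Mxd4, Mxd1, Myc, Mxi1 and Mnt thus spanned wider ranges than the median gene, and Max and Mxd3 narrower ones. For Mxd3 this does not hold on a dimmer probe set (1448878_at), where group means ran from 2.18 to 8.61.

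**Figure D1:**
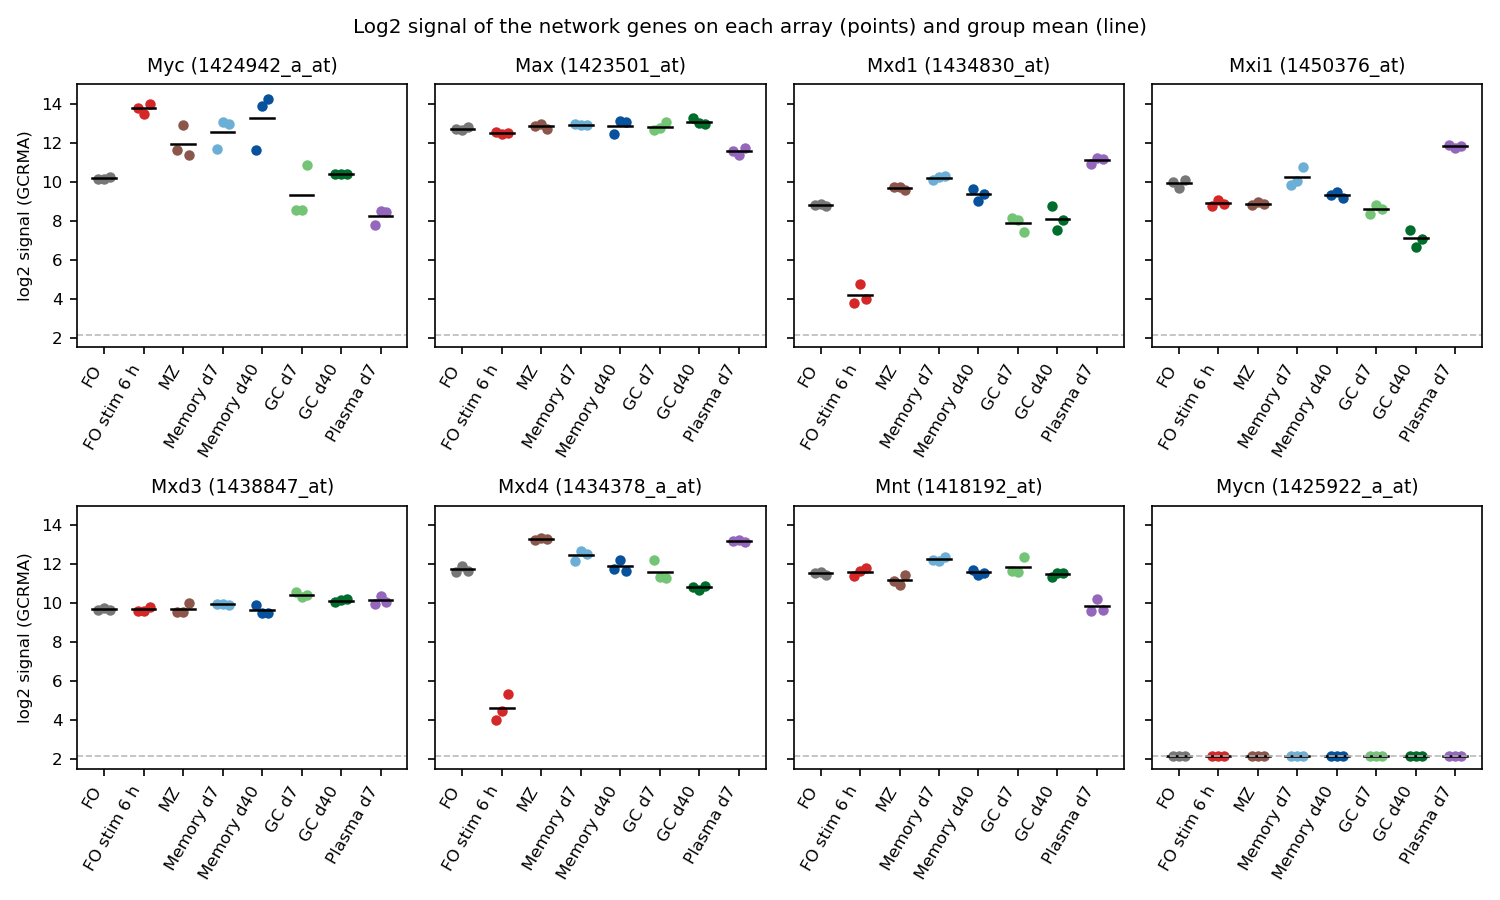
Log2 GCRMA signal (y axis) of the 8 network genes on every array, by group (x axis; FO follicular, MZ marginal zone, GC germinal center, stim stimulated, d day). Points are single arrays, 3 per group, black bars are group means and the dashed line is the floor of 2.15. Mxd1 and Mxd4 are lowest in stimulated cells, Max and Mnt in plasma cells, and Mycn lies at the floor.

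Myc, the activator of the network, was measured by 1 probe set (1424942_a_at). In follicular cells its signals were 10.14, 10.15 and 10.27. After 6 h of stimulation they were 13.80, 13.51 and 14.00, with no overlap. Myc rose by 3.58 ± 0.63 (SE) on the log2 scale, which is 12-fold, with a limma adjusted p of 8.16e-05.

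Both memory groups also had high Myc. At day 7 the signals were 11.67, 13.07 and 12.96, which is 2.38 ± 0.63 above follicular cells (adjusted p = 0.00671), and 2.83 without replicate 1 (adjusted p = 0.0042). At day 40 they were 11.62, 13.89 and 14.27, which is 3.07 ± 0.63 above them (adjusted p = 0.00132). Every memory array lay above every follicular array, but replicate 1 was the lowest of its group at both days. Without replicate 1 of day 40 that rise was 3.89 (adjusted p = 8.15e-05). Marginal zone cells had 11.62, 12.92 and 11.37, all above follicular cells, and the difference of 1.78 ± 0.63 missed the threshold (adjusted p = 0.0596). It passed with a trended and robust prior (adjusted p = 0.0424), with array weights (1.58, adjusted p = 0.00271), with a replicate block (adjusted p = 0.0344), and without germinal center day 7 replicate 3 or memory day 40 replicate 1, which enter through the shared estimate of spread (adjusted p = 0.0259 and 0.0208). Under the rest of the 12 other settings, and with any other single array left out, it was not called. The marginal zone array with the highest Myc, replicate 2, also had Fosb, an early activation gene, at 10.26 against 3.48 and 3.54. Its mean over 14 early activation genes was 9.09 against 8.37 and 7.94, with 8.75 to 9.15 on follicular arrays. The part of such genes in its Myc level was not tested.

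Germinal center cells of neither day were called against follicular cells in Myc. Their signals were 8.56, 8.58 and 10.87 at day 7 and 10.38, 10.40 and 10.38 at day 40. Against follicular cells the differences were -0.85 (95% interval -2.17 to 0.47, adjusted p = 0.292) and 0.20 (-1.12 to 1.52, adjusted p = 0.852). Replicate 3 of day 7 lay above the other arrays of its group and above follicular cells, and without it the lower Myc of day 7 was called (log2 change -1.62, adjusted p = 0.0325). Against memory cells of the same day Myc fell by 3.23 ± 0.63 at day 7 (adjusted p = 0.000435) and by 2.87 ± 0.63 at day 40 (adjusted p = 0.000958). Without replicate 3 of the day 7 germinal center cells the first was -4.0, and without replicate 1 of the day 40 memory cells the second was -3.69.

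Plasma cells had the lowest Myc, with 7.81, 8.49 and 8.43. All lay below every follicular array, and Myc fell by 1.94 ± 0.63 against follicular cells (adjusted p = 0.0119). Against memory cells of day 7 it fell by 4.32 ± 0.63, a factor of 20.0 (adjusted p = 9.90e-06).

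The order of the Myc means was stimulated follicular, memory day 40, memory day 7, marginal zone, germinal center day 40, follicular, germinal center day 7, plasma. Among neighbours in that order, the top 4 groups overlapped array by array and none of their steps was called. The step from marginal zone to germinal center cells of day 40 was called (1.58, adjusted p = 0.0415), in a comparison where 34.3% of all genes were. The lower steps, of 0.20, 0.85 and 1.09, were not called.

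Mycn, the relative of Myc known from immature and neural cells, was listed at 2.15 or 2.16 on all 24 arrays by all 3 of its probe sets. It was not tested.

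Max encodes the partner that MYC, the MXD proteins and MNT all need to bind DNA. Its 1 probe set (1423501_at) read 12.71, 12.65 and 12.83 in follicular cells and 12.57, 12.44 and 12.52 after stimulation, a difference of -0.22 (95% interval -0.55 to 0.11, adjusted p = 0.25). Over the 7 groups other than plasma cells, single arrays lay between 12.44 and 13.30. Plasma cells had 11.59, 11.38 and 11.72, below every other array. Max fell by 1.17 ± 0.16 there against follicular cells (adjusted p = 3.04e-06), by 1.36 ± 0.16 against memory cells (adjusted p = 5.29e-07) and by 1.27 ± 0.16 against germinal center cells of day 7 (adjusted p = 1.24e-06). In the order of the Max means, no neighbouring groups differed by a call. The step from stimulated to plasma cells, 0.95 without overlap (adjusted p = 3.14e-05), was just under the minimum change.

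Mnt encodes a MAX partner that represses and is made in most cell types. Its signals (1418192_at) were 11.55, 11.61 and 11.48 in follicular cells and 11.41, 11.64 and 11.80 after stimulation, and these groups overlapped. The difference was 0.07 (95% interval -0.34 to 0.48, adjusted p = 0.817). Plasma cells had 9.61, 10.25 and 9.68, below all other arrays. Mnt fell by 1.70 ± 0.19 against follicular cells (adjusted p = 3.86e-07), by 2.42 ± 0.19 against memory cells (adjusted p = 3.94e-09) and by 2.03 ± 0.19 against germinal center cells of day 7 (adjusted p = 4.46e-08). The step to the next group in order, marginal zone cells, was 1.33 (adjusted p = 7.99e-06), where 43.2% of all genes were called. Memory cells of day 7 had the highest Mnt, 12.24, 12.17 and 12.39, above every follicular array, but the difference of 0.72 was under the minimum change (adjusted p = 0.00768).

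Mxd1, the MXD gene known from maturing cells, ran opposite to Myc in stimulated cells and in plasma cells. Follicular arrays read 8.81, 8.85 and 8.75 on its brightest probe set (1434830_at). Stimulated arrays read 3.79, 4.77 and 3.98, the lowest of any group. Mxd1 fell by 4.62 ± 0.28 (24.6-fold, adjusted p = 6.81e-11). A dimmer probe set (1455104_at) did not show this: it read 6.80, 5.81 and 6.23 in follicular and 4.85, 6.73 and 5.84 in stimulated cells, which overlap, and the difference was -0.47 (95% interval -1.26 to 0.32, adjusted p = 0.306). The probe sets of Mxd1 therefore disagree on the difference between stimulated and follicular cells.

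Both probe sets placed Mxd1 highest in plasma cells. The values there were 10.94, 11.21 and 11.18 on the brightest and 10.96, 10.62 and 11.07 on the dimmer one, all above every array of the other 7 groups. Against follicular cells Mxd1 rose by 2.31 ± 0.28 (adjusted p = 6.50e-07) and by 4.60 on the dimmer probe set (adjusted p = 4.03e-09). Against germinal center cells of day 7 it rose by 3.23 ± 0.28 (adjusted p = 8.66e-09) and by 4.39 (adjusted p = 9.88e-09).

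Memory cells of day 7 followed, with 10.10, 10.23 and 10.29, and Mxd1 rose there by 1.40 ± 0.28 over follicular cells (adjusted p = 0.00061). This is a group where Myc was high as well. Germinal center cells had 8.17, 8.03 and 7.43 at day 7 and 8.77, 7.52 and 8.06 at day 40. Mxd1 fell by 2.33 ± 0.28 from memory to germinal center cells at day 7 (adjusted p = 2.41e-06), and by 1.25 ± 0.28 at day 40 (adjusted p = 0.00097). The day 40 call was lost without germinal center replicate 2 (log2 change -0.95), on the dimmer probe set (-0.64) and with all probe sets averaged (-0.63). For germinal center cells of day 40 against follicular cells the probe sets differ in sign, with -0.69 on the brightest (adjusted p = 0.0438, under the minimum change) and 1.31 on the dimmer one (adjusted p = 0.00665). The third probe set lay near the floor on every array.

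Mxi1 encodes another MXD repressor and was called in 10 of the 13 comparisons, more than any other gene of the network. Plasma cells had 11.89, 11.76 and 11.82 (1450376_at), above all other arrays. Mxi1 rose there by 1.90 ± 0.22 over follicular cells (adjusted p = 5.01e-07), by 1.59 ± 0.22 over memory cells of day 7 (adjusted p = 5.84e-06) and by 3.23 ± 0.22 over germinal center cells (adjusted p = 4.42e-10). The second probe set was at the floor except on 2 plasma cell arrays, at 4.15 and 4.89.

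Germinal center cells had the lowest Mxi1. Follicular arrays read 9.98, 9.69 and 10.09, germinal center arrays 8.35, 8.81 and 8.63 at day 7 and 7.54, 6.66 and 7.09 at day 40. None of these groups overlapped. Mxi1 fell by 1.32 ± 0.22 at day 7 (adjusted p = 6.41e-05) and fell by 2.82 ± 0.22 at day 40 (adjusted p = 4.90e-09), and it fell by 1.50 ± 0.22 from day 7 to day 40 (adjusted p = 0.000121). Against memory cells, with 9.83, 10.07 and 10.79 at day 7 and 9.34, 9.47 and 9.16 at day 40, it fell by 1.63 ± 0.22 (adjusted p = 1.25e-05) and by 2.23 ± 0.22 (adjusted p = 1.92e-07).

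Stimulated cells, with 8.77, 9.08 and 8.86, and marginal zone cells, with 8.79, 8.99 and 8.88, both lay below follicular cells in Mxi1. It fell by 1.02 ± 0.22 (adjusted p = 0.000692) and by 1.03 ± 0.22 (adjusted p = 0.00238), close to the minimum change of 1. The first call was lost without follicular replicate 1 or 3 or stimulated replicate 1 or 3, where the change was as small as -0.93, and with quantile normalization (-0.73), with arrays shifted to the same median (-0.70) and with an offset of 16 before the log (-0.99). The second was lost without follicular replicate 3 (-0.95) or marginal zone replicate 1 (-0.99). Averaging both probe sets of Mxi1 ended these calls. It also ended those of germinal center cells of day 7 against follicular (-0.66) and memory cells (-0.82), and of day 40 against day 7 (-0.75). Averaging those of Mnt ended its call in plasma against follicular cells (-0.85). The other Mnt probe set read 2.15 on all arrays, and the other Mxi1 probe set did so outside plasma cells. Averaging with such a probe set shrinks a change by itself, so these losses were fixed in advance.

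Mxd4 spanned the widest range of the network. Marginal zone cells had the most, 13.28, 13.35 and 13.32 (1434378_a_at), and plasma cells 13.19, 13.28 and 13.15, which overlap. Follicular cells had 11.63, 11.93 and 11.68, and stimulated cells 4.0, 4.49 and 5.37. Mxd4 fell by 7.13 ± 0.27 in stimulated cells (140-fold, adjusted p = 1.43e-13). On a second probe set (1434379_at) the values were 7.77, 8.98 and 8.38 before and 2.15 on all 3 stimulated arrays, so the fall of 6.23 is measured against the floor. The third and dimmer one (1422574_at) read 5.01, 5.40 and 5.53 before and 5.46, 5.17 and 4.76 after, a difference of -0.18 (95% interval -0.59 to 0.23, adjusted p = 0.456), and the fourth was at or near the floor.

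Mxd4 rose by 1.57 ± 0.27 in marginal zone over follicular cells (adjusted p = 0.000333), though on the third probe set by less than the minimum (0.84, adjusted p = 0.0043). In plasma cells it rose by 1.46 ± 0.27 over follicular cells (adjusted p = 0.000129), by 2.73 on the second probe set and by 4.86 on the third. Against germinal center cells of day 7, with 12.21, 11.34 and 11.28, it rose by 1.60 ± 0.27 (adjusted p = 5.95e-05). In germinal center cells of day 40, with 10.85, 10.71 and 10.91, it fell by 1.08 ± 0.27 against memory cells, with 11.78, 12.25 and 11.68 (adjusted p = 0.00307). That call was kept on the second probe set (-1.21, adjusted p = 0.00138). It was lost without memory replicate 2 (-0.91), on the third probe set (-0.14) and with all probe sets averaged (-0.61). From the lowest of the other groups to stimulated cells the steps were 6.20 for Mxd4, from germinal center cells of day 40 (adjusted p = 9.98e-13), and 3.70 for Mxd1, from germinal center cells of day 7 (adjusted p = 1.44e-09). All genes were called at 42.0% and 42.1% in these pairs of groups.

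**Figure D2:**
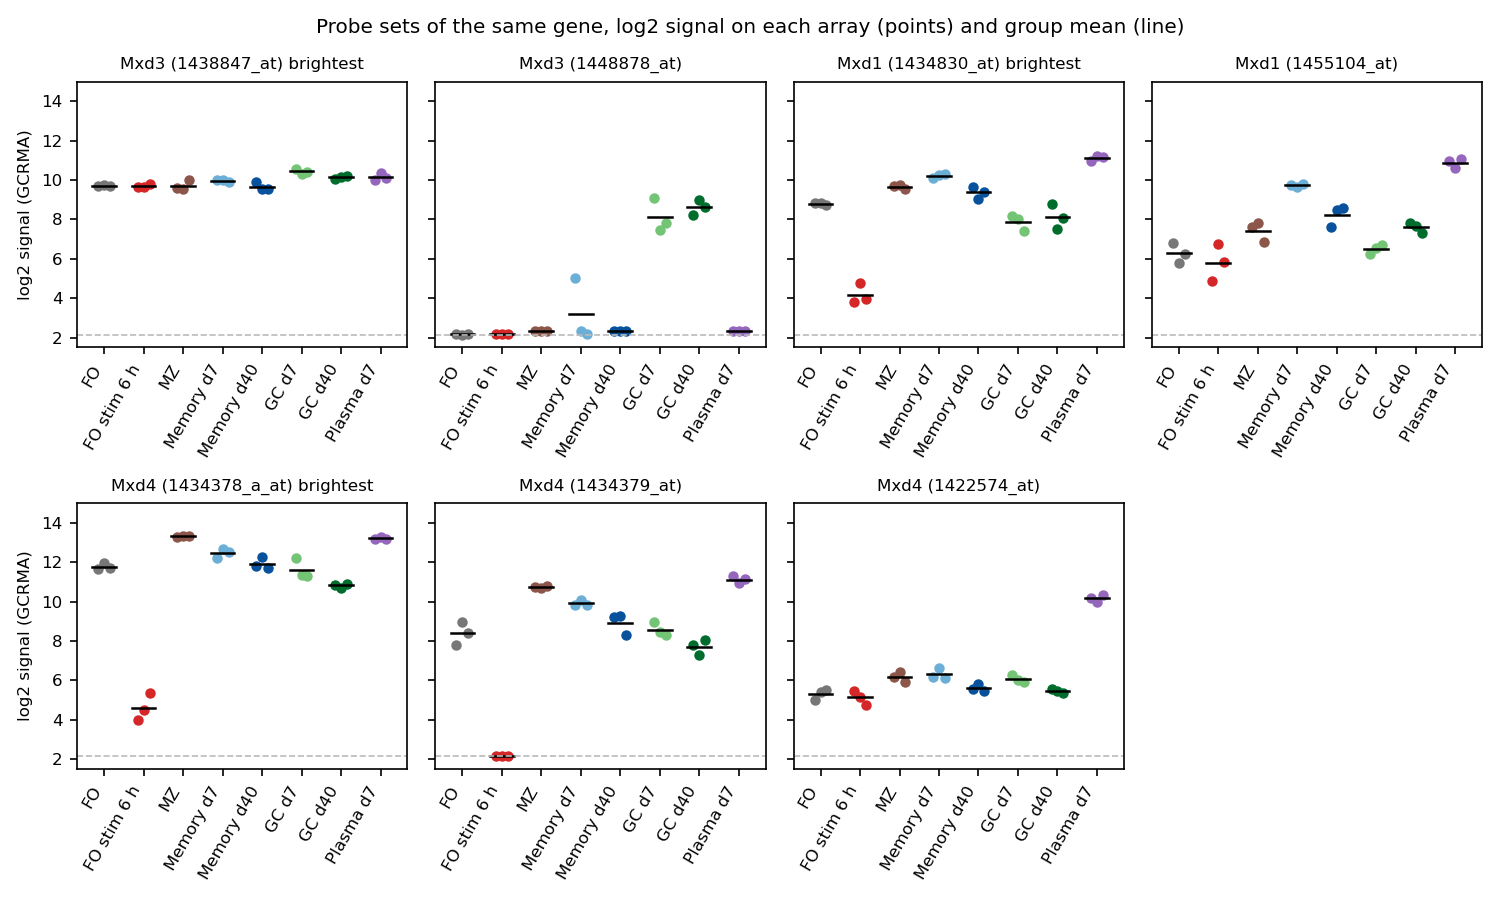
Log2 GCRMA signal (y axis) on every array, by group (x axis), for the probe sets of Mxd3, Mxd1 and Mxd4 that disagree. Points are arrays, black bars group means and the dashed line the floor of 2.15. On 1448878_at Mxd3 is at 7.47 to 9.10 in germinal center cells and at most 5.01 elsewhere. The falls of Mxd1 and Mxd4 from follicular to stimulated cells on their brightest probe sets are not seen on 1455104_at and 1422574_at. Stimulated cells still have the lowest group means on these, 5.81 and 5.13.

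Mxd3, the MXD gene known from cycling cells, gave different pictures on its probe sets. The brightest (1438847_at) read 9.68, 9.74 and 9.68 in follicular cells, 10.58, 10.32 and 10.41 in germinal center cells of day 7 and 10.05, 10.15 and 10.22 at day 40. These did not overlap, yet the differences from follicular cells, 0.74 (adjusted p = 0.000242) and 0.44 (adjusted p = 0.0135), were under the minimum change. A dimmer one (1448878_at) read 9.10, 7.47 and 7.82 in germinal center cells of day 7 and 8.21, 9.01 and 8.61 at day 40. On it follicular, stimulated, marginal zone, plasma and day 40 memory cells all lay between 2.15 and 2.36. Mxd3 by this probe set rose by 5.95 ± 0.51 over follicular cells at day 7 (adjusted p = 2.11e-08) and by 6.43 ± 0.51 at day 40 (adjusted p = 4.93e-09), both measured from near the floor. Memory cells of day 7 had 5.01, 2.34 and 2.20, and the high value is that of replicate 1, the array with high germinal center markers. The third (1422970_at) read 5.10, 3.39 and 2.55 in germinal center cells of day 7 and 3.18, 5.45 and 5.29 at day 40, and 2.47 or 2.49 on all arrays of the other groups.

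Set side by side, the comparisons differed in how many of the 7 tested genes were called. The share of all genes called differed as well, with 5.02% between the memory days and 42.7% in plasma against follicular cells. The counts are therefore given beside that share and are not read as a trait of the network. Between stimulated and follicular cells 4 of the 7 tested genes were called: Myc was higher in stimulated cells, and Mxd1, Mxi1 and Mxd4 were lower. Of all genes, 39.3% were called there. Max, Mnt and Mxd3 differed by -0.22, 0.07 and -0.01, none of them called. The falls of Mxd1 and Mxd4 are each missing on 1 probe set, and the Mxi1 call was lost under 4 of 12 other settings and without any of 4 single arrays.

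Plasma cells differed from follicular cells in 6 of the 7 genes, where 42.7% of all genes were called. Myc, Max and Mnt fell, and Mxd1, Mxi1 and Mxd4 rose. Against memory cells of day 7, 4 of 7 were called (36.6% of all genes): Myc, Max and Mnt were lower and Mxi1 higher. On their brightest probe sets Mxd1 and Mxd4 differed by 0.90 and 0.74, under the minimum. Their other probe sets above the floor were called higher, by 1.13 for Mxd1 (1455104_at, adjusted p = 0.0158) and by 1.2 (1434379_at, adjusted p = 0.00119) and 3.86 (1422574_at, adjusted p = 4.73e-12) for Mxd4. Against germinal center cells of day 7, 5 of 7 were called (38.2% of all genes), with Max and Mnt lower, Mxd1, Mxi1 and Mxd4 higher and Myc at -1.09 (adjusted p = 0.154). Mxd3 was called lower there on 1448878_at (-5.78, adjusted p = 1.31e-08) and on 1422970_at (-1.19, adjusted p = 0.0492), against values near the floor in plasma cells. Markers of other cells moved with these differences. The mean level over 8 myeloid markers was 9.0 to 9.23 on the plasma cell arrays and 3.44 to 3.99 on the follicular ones, with 6 of 7 tested markers higher and 1 lower, the neutrophil gene S100a8 at 13.37, 13.37 and 13.14 against 2.15 throughout, and Itgam and Adgre1 at background in plasma cells. Of 4 tested T cell markers 3 were higher, Cd4 by 2.98, Il7r by 1.43 and Cd8a by 1.38, and Cd3g was at background. The part of such cells in the plasma cell results was not tested.

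Memory cells differed from follicular cells in 2 of 7 genes at day 7, Myc and Mxd1 (18.4% of all genes), and in 1 of 7 at day 40, Myc (13.8% of all genes). Of 7 tested myeloid markers 4 were higher at each day, with mean levels over the 8 of 5.92 to 8.58 and 5.86 to 8.02. Of 6 germinal center markers 3 were higher at each day, with medians of 2.65 and 3.71, and at day 7 without replicate 1 there were 2 higher and 1 lower, with a median of 0.67. Without that day 7 array, which enters through the shared estimate of spread, 5 of the 6 were higher at day 40. The part of either kind of cell was not tested. On other probe sets, Mxd4 was called in memory cells of day 7 (1.54 on 1434379_at, adjusted p = 0.000291, and 1.0 on 1422574_at, adjusted p = 0.000588) and Mxd1 at day 40 (1.95 on 1455104_at, adjusted p = 0.000762). Between the days none of the 7 was called by limma, and 5.02% of all genes were. At an unadjusted p under 0.05 there were 3, Mxd1, Mxi1 and Mnt, with differences of -0.84, -0.91 and -0.68 at day 40. Mxi1 and Mnt also passed the adjusted p (0.0134 and 0.0318) but not the minimum change. Without memory replicate 1 of day 7, Mxi1 was called (-1.11, adjusted p = 0.00479). Mxd4 on 1434379_at was then called as well (-1.04, adjusted p = 0.0483), while with all arrays it was not (-1.0, adjusted p = 0.0275). On the dimmer probe set Mxd1 was called too (-1.52, adjusted p = 0.0147).

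Germinal center cells differed from follicular cells in 1 of 7 genes at each day, Mxi1, where 31.0% of all genes were called at day 7 and 32.4% at day 40. At day 7 the count was 2 without any single germinal center array, with Mxd1 (adjusted p = 0.00761 and 0.0142) added without replicate 1 (-1.07) or replicate 2 (-1.0), and Myc without replicate 3. The dimmer Mxd1 probe set (1455104_at) did not show this fall, with a day 7 difference of 0.21 over all arrays (adjusted p = 0.708). At day 40 Mxd1 was added without replicate 1 (-1.01), the array with high myeloid markers and the highest Mxd1 of its group, and Mxd4 with arrays shifted to the same median (-1.07). From memory to germinal center cells, 3 of 7 fell at day 7, Myc, Mxd1 and Mxi1 (23.7% of all genes), and 4 of 7 at day 40, these and Mxd4 (27.9% of all genes). None was higher on the brightest probe sets. Without germinal center replicate 1 of day 7, Mxd4 was called at day 7 too (-1.15, adjusted p = 0.00266). On 1434379_at it was called with all arrays (-1.34, adjusted p = 0.000744). On 1448878_at Mxd3 was higher by 4.95 at day 7 (adjusted p = 4.43e-07), or 5.86 without memory replicate 1 (adjusted p = 7.60e-11), and by 6.27 at day 40 (adjusted p = 1.15e-08). Memory cells lay near the floor on this probe set, apart from that replicate. On 1422970_at it was higher by 2.15 at day 40 (adjusted p = 0.00151). Between the days the only call in germinal center cells was Mxi1, 1 of 7 (5.93% of all genes). Whether the germinal center minus memory difference changed with the day was tested as an interaction, and limma called none of the 7 (4.95% of all genes). At an unadjusted p under 0.05 there was 1, Mxd1, at 1.08 ± 0.39 (adjusted p = 0.121). It was called without germinal center replicate 2 of day 40 (1.38, adjusted p = 0.0361), and on the dimmer probe set (2.62, adjusted p = 0.00461).

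Marginal zone cells differed from follicular cells in 2 of 7, with Mxi1 lower and Mxd4 higher (11.0% of all genes). The count was 1 without follicular replicate 3 or marginal zone replicate 1, the arrays on which the Mxi1 call rests. On 1455104_at Mxd1 was called higher as well (1.15, adjusted p = 0.0407).

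**Figure D3:**
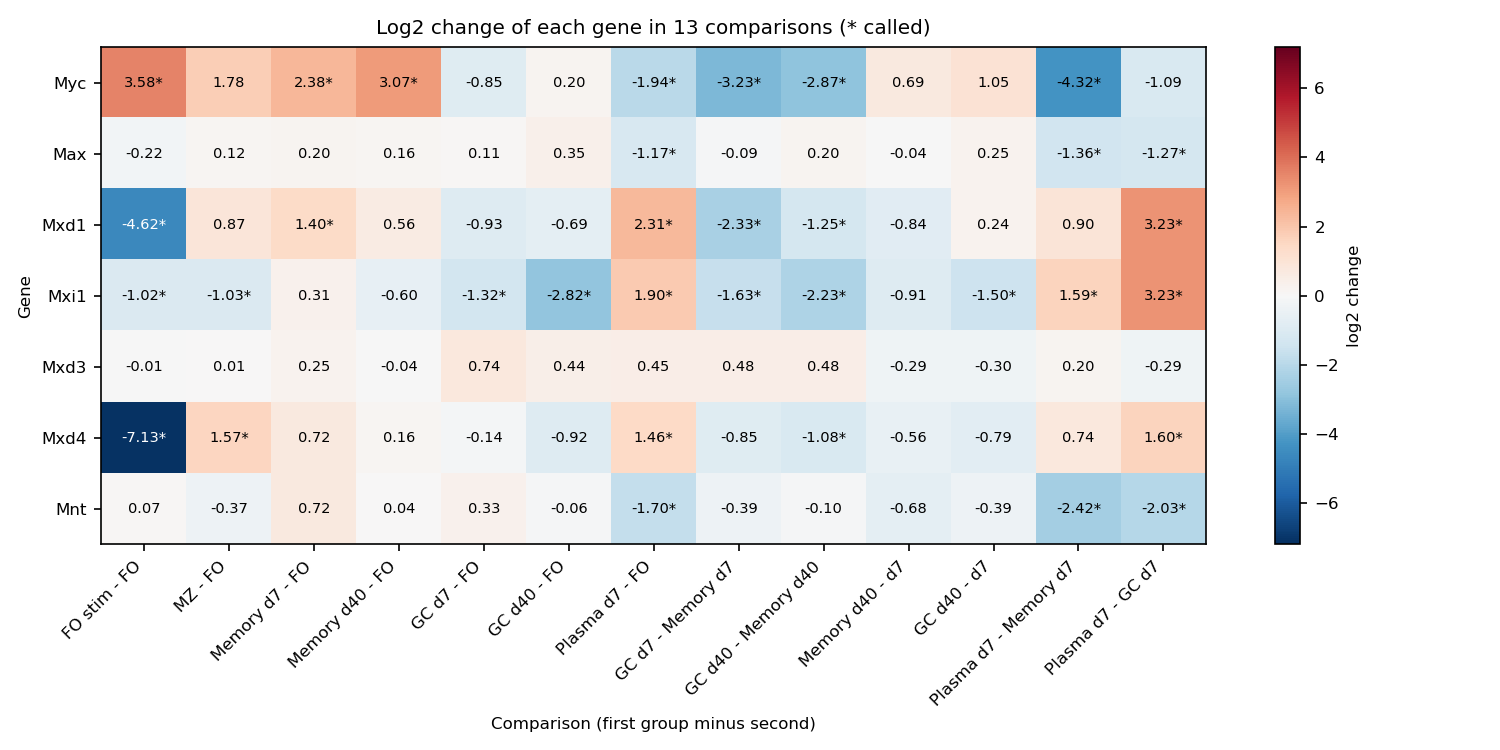
Log2 change of the 7 tested genes (rows) in 13 comparisons (columns; the first group minus the second), printed in each cell and coloured from blue for lower to red for higher. An asterisk marks a limma adjusted p under 0.05 with a change of at least 1. The largest changes are the falls of Mxd4 (-7.13) and Mxd1 (-4.62) in stimulated cells.

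The other genes of the wider network are Mycl, Mga, Mlx, Mlxip and Mlxipl. Mycl, a further MYC relative, and Mlxipl, a glucose-responsive factor, were at or near the floor, at 2.15 to 2.27. Mga, a large repressor that pairs with MAX, read 13.47, 13.46 and 13.56 in follicular cells and 12.03, 11.79 and 11.97 in plasma cells, and it fell by 1.57 ± 0.12 (adjusted p = 1.01e-09). It also fell by 1.19 ± 0.12 in germinal center cells of day 7 (adjusted p = 1.17e-07). Mlx, which takes the place of MAX as partner in a parallel branch, read 10.21, 10.18 and 10.16 before stimulation and 8.42, 8.58 and 9.08 after, and it fell by 1.49 ± 0.21 (adjusted p = 6.13e-06). Mlxip, an MLX partner, fell by 1.07 ± 0.16 in germinal center cells of day 40 (adjusted p = 1.97e-05). Of the 3 tested, 1 was lower than in follicular cells in each of the stimulated, germinal center day 7, germinal center day 40 and plasma groups, and none in the remaining comparisons with follicular cells.

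Gene lists chosen from the known functions of the network follow, each against follicular cells. Among all genes, the share called higher was 16.9% in stimulated, 7.21% in marginal zone, 9.18% in memory day 7, 7.23% in memory day 40, 14.4% in germinal center day 7, 16.8% in germinal center day 40 and 20.3% in plasma cells. The shares called lower were 22.4%, 3.83%, 9.20%, 6.54%, 16.6%, 15.6% and 22.4% in the same order.

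Growth genes that MYC is known to induce rose in stimulated cells, 21 of 24, with none lower and a median change of 1.69 against -0.02 over all genes. Polr1b, a subunit of the polymerase that makes ribosomal RNA, rose by 3.79 ± 0.42 (adjusted p = 2.96e-07). Nop16, a nucleolar protein, rose by 3.52 ± 0.28, Srm, which makes spermidine, by 3.34 ± 0.21, and Cad, which starts pyrimidine synthesis, by 2.88 ± 0.50.

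In memory cells, the other groups with high Myc, 1 of 24 rose at day 7 and 1 at day 40, and it was Odc1 both times. Odc1, the first enzyme of polyamine synthesis, read 12.68, 12.25 and 12.05 in follicular cells, 13.41, 13.50 and 13.79 in memory cells of day 7 and 13.91, 13.76 and 13.59 at day 40. It rose by 1.24 ± 0.16 (adjusted p = 8.42e-06) and by 1.43 ± 0.16 (adjusted p = 2.10e-06). The medians over the list were 0.13 and 0.10, with -0.04 over all genes in each, and 0.01 at day 7 without replicate 1. In marginal zone cells none of the 24 was called and the median was 0.36.

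In germinal center cells, not called against follicular cells in Myc, 6 of 24 rose at day 7 (median 0.55) and 7 at day 40 (median 0.72), with none lower. Odc1, Nop16, Ppat, which starts purine synthesis, and Cdk4, a cell cycle kinase, were among them at both days, with Nop16 at 1.12 and 1.87 and Ppat at 1.16 and 1.57. Plasma cells, with the lowest Myc, had 4 higher and 4 lower (median -0.09). Srm rose by 3.04 ± 0.21 (adjusted p = 3.52e-10), with 12.91, 13.18 and 13.14 against 9.84, 10.27 and 10.00 in follicular cells, and Cad by 2.03 ± 0.50. Apex1, a DNA repair enzyme, fell by 2.13 ± 0.20 (adjusted p = 3.52e-08), and Nme1, a nucleotide kinase, rose by 1.53 ± 0.11. In the plot of Myc against the lists, the 6 memory arrays lie above every follicular array in Myc, 4 of them below every stimulated array, and their growth gene means overlap with those of follicular arrays.

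**Figure D4:**
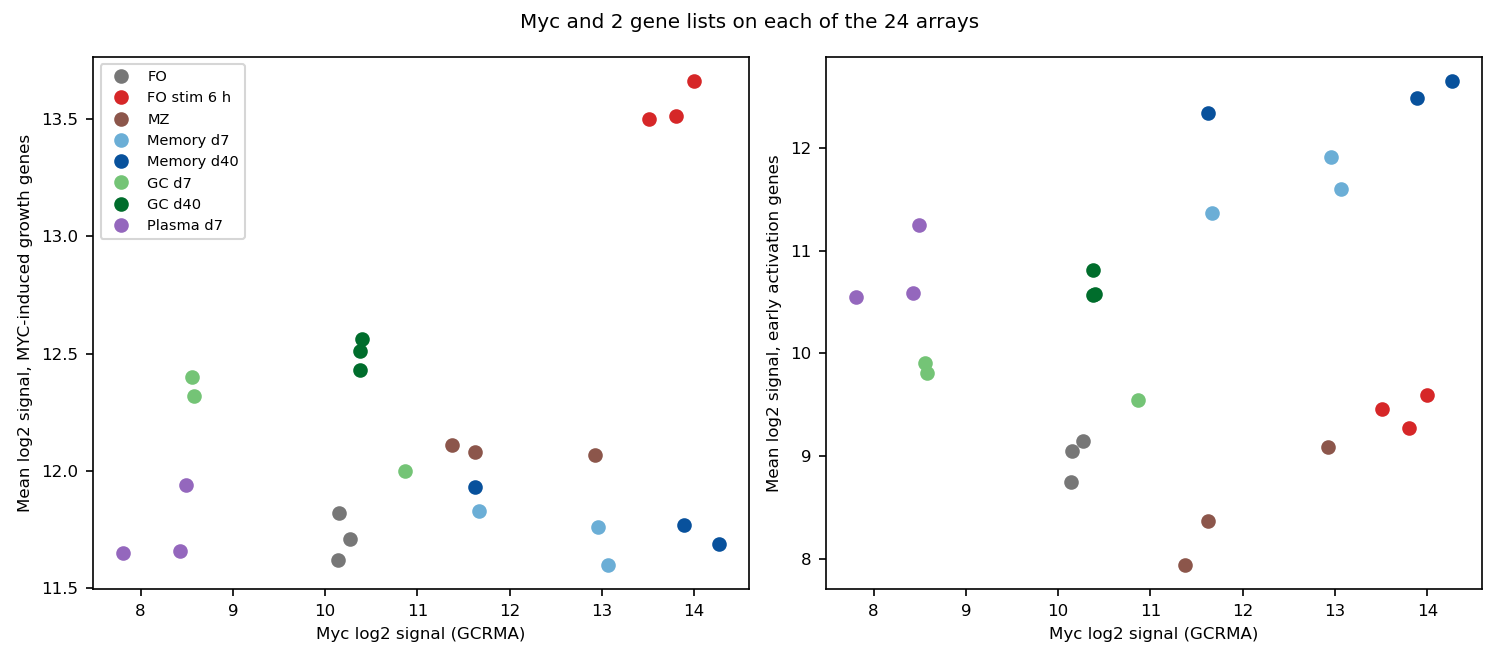
Each point is 1 of the 24 arrays, with the log2 signal of Myc on the x axis and the mean log2 signal of 24 growth genes (left) or 14 early activation genes (right) on the y axis; colours are the 8 groups. Stimulated arrays are highest in growth genes (13.50 to 13.66), memory arrays, with Myc of 11.62 to 14.27, lie at 11.60 to 11.93, and memory cells of day 40 are highest in early activation genes (12.34 to 12.65).

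Early activation genes, which respond within hours to receptor signals and are known to respond to cell handling, moved with Myc in memory cells. In memory cells of day 7, 8 of 14 rose and none fell (median 1.54), or 9 of 14 without replicate 1 (median 1.74), and at day 40, 12 of 14 rose (median 2.62). Nr4a3, an orphan nuclear receptor, rose by 9.14 ± 0.27 and by 9.77 ± 0.27, and Fosb by 7.53 ± 1.12 and 8.17 ± 1.12. In stimulated cells 3 rose, Nr4a3 by 8.71, Nr4a1 by 4.02 and Egr2 by 3.27, and 2 fell (median 0.31). Fos, a subunit of the AP-1 factor, fell by 6.70. The mean level over the list was 8.75 to 9.15 on follicular arrays, 11.37 to 11.91 and 12.34 to 12.65 on memory arrays of day 7 and day 40, and 9.27 to 9.59 on stimulated arrays. Plasma cells had 7 higher and 3 lower, with Myc low. In marginal zone cells 1 rose, Nr4a3 by 1.58, and 4 fell, and germinal center cells had 4 higher and 3 lower at day 7 and 6 higher and 2 lower at day 40. The part of handling in the Myc levels of memory cells was not tested.

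Genes that MYC is known to lower, among them brakes on the cell cycle, did not move 1 way in stimulated cells. Of 7, 3 fell. Gadd45a, a stress gene, fell by 5.60 ± 0.49 (adjusted p = 1.44e-08), Ccng2, a cyclin of resting cells, fell by 3.57 ± 0.38 and Cdkn1b, which encodes a cell cycle inhibitor, fell by 1.92 ± 0.23. Cdkn1a, which encodes a related inhibitor, rose by 7.83 ± 0.73 (adjusted p = 3.44e-08), from 2.67, 2.43 and 2.65 to 10.23, 10.36 and 10.65. Cdkn1a also rose by 6.40 ± 0.73 in plasma cells, where Cdkn2c rose by 3.42 and Cdkn2b by 2.09 and none of the list fell. Both memory groups had 1 higher, Cdkn1a, and 1 lower, Ndrg1; at day 7 the count of higher genes was 0 without replicate 1. Germinal center cells had 1 higher and 1 lower at day 7, Cdkn2c by 3.40 and Cdkn1b by -1.08, and 3 higher and 1 lower at day 40, and marginal zone cells had 1 lower, Ndrg1.

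Genes of cell division were a check on how far Myc and division ran together. All 9 rose in germinal center cells of both days (medians 7.96 and 8.22) and in plasma cells (median 7.37). Of these, plasma cells were called lower than follicular cells in Myc, and germinal center cells were not called. In memory cells 8 of 9 rose at each day (medians 5.45 and 4.19, the first 4.56 without replicate 1), and so did 8 of 9 in marginal zone cells (median 4.32). In stimulated cells none rose and 1 fell (median -0.27), at 6 h of culture with the highest Myc.

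MYC recruits histone acetyltransferases and chromatin remodelling proteins. Of 12 such genes, 4 rose in stimulated cells: Ruvbl2 by 2.37 ± 0.22 (adjusted p = 2.84e-08) and Ruvbl1 by 1.83 ± 0.14 (adjusted p = 3.52e-09), the paired helicases, Kat2a, an acetyltransferase, by 1.58 ± 0.33 and Wdr5, a histone methylation subunit, by 1.05 ± 0.20. Kat2b, the close relative of Kat2a, read 10.9, 10.99 and 10.85 in follicular cells and 6.41, 3.16 and 4.79 in stimulated cells, and fell by 6.13 ± 0.46 (adjusted p = 1.72e-09). Ruvbl2 and Ruvbl1 were also the 2 that rose in germinal center cells, by 1.48 and 1.06 at day 7 and by 1.96 and 1.23 at day 40. In plasma cells 3 fell, Cdk9, the kinase that releases paused polymerase, by 1.35 ± 0.13, Wdr5 by 1.12 and Kat2a by 1.07. None was called in marginal zone or memory cells.

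MXD proteins recruit the SIN3 corepressor. Of 8 tested genes of that complex, Sap30, a SIN3 subunit, was the 1 called gene in stimulated (1.29), memory day 7 (1.69), germinal center day 7 (2.12) and germinal center day 40 cells (2.35), higher each time. In plasma cells Sap30 (1.85) and Sin3b, a SIN3 scaffold (1.03), rose, and Hdac1, a histone deacetylase, fell by 1.28 ± 0.12 (adjusted p = 3.67e-08), from 12.64, 12.60 and 12.47 to 11.22, 11.52 and 11.13. None was called in marginal zone cells or memory cells of day 40.

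MYC protein is short-lived, and 13 tested genes act on its turnover, which an array of RNA does not measure. Cip2a, which protects MYC from a phosphatase, rose by 5.63 ± 0.45 in germinal center cells of day 7 (adjusted p = 9.06e-09), by 5.64 at day 40 and by 5.41 in plasma cells, and by 2.87 and 1.84 in memory cells and 1.87 in marginal zone cells. Pim1, a kinase that stabilizes MYC, rose in all groups except marginal zone cells, by 1.24 to 2.23. Fbxw7, the ubiquitin ligase subunit that marks MYC for decay, rose by 1.52 and 1.36 in memory cells, by 1.11 in germinal center cells of day 40 and by 1.88 in plasma cells. Skp2, another ligase subunit, rose by 4.12 ± 0.47 and 4.20 ± 0.47 in germinal center cells, by 1.93 in plasma and by 1.18 in stimulated cells. Btrc, a related subunit, fell by 2.05 and 1.08 in germinal center cells and by 3.14 in plasma cells. Usp28, which removes ubiquitin from MYC, rose by 1.04 in stimulated cells and by 1.29 in germinal center cells of day 40 and fell by 1.85 in marginal zone cells. That makes 3 higher in stimulated, memory day 7, memory day 40 and germinal center day 7 cells, 5 in germinal center day 40, 4 in plasma and 1 in marginal zone cells, with 1 lower in each of the last 3 and in germinal center day 7 cells.

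The genes most like each network gene were those with the highest Pearson r over the 24 arrays among genes tested. The arrays share their group structure, so r describes these samples and carries no p. For Myc they were Irf2bp2 (0.913), Cdk5r1 (0.891) and Rbpj (0.875), for Max Grb2 (0.956), Rfx7 (0.941) and Sipa1l2 (0.941), and for Mnt Lrrc75a (0.919), Agfg1 (0.916) and Ptpn23 (0.911). For Mxd1 they were Ppp3cc (0.961), Slc46a3 (0.953) and Ech1 (0.953), for Mxi1 Npc2 (0.919), Tmbim4 (0.916) and Atp6v0a1 (0.904), for Mxd3 Qars (0.911), Ap2s1 (0.903) and Rnf10 (0.885), and for Mxd4 Wbp1 (0.981), Pld4 (0.980) and Atg9a (0.980).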

How the data were processed

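RNA of 24 samples, 3 in each of 8 groups, was amplified and hybridized to Affymetrix mouse genome arrays. The deposited log2 values are GCRMA summaries per probe set, per the submitters' processing notes, with no version or batch given; they were used as deposited. Of 45101 probe sets, 34945 had 1 gene, 932 several and 9160 none, with 64 controls. Each gene took the probe set with the highest mean, and genes above the array median on at least 3 arrays were tested with limma 3.58.1 (R 4.3.3), 1 mean per group over all arrays. A call needs a Benjamini-Hochberg adjusted p under 0.05 over 11208 genes and a log2 change of at least 1. Intervals are 95% limma intervals. The procedure was tested on simulated data. Of 146 genes in 16 lists, 130 were tested. Members and lists were chosen with earlier results of these data known. Genes named from a list are among the 4 called genes with the largest change in at least 1 comparison, and markers are named where they bear on a label. Figures used Python 3.11.15 and matplotlib 3.10.9. Precision is limited by 3 arrays per group.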

Additional observations from a re-analysis of the deposited data

How the results depend on the processing

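Of 34 called changes of network genes, 26 kept their direction and call under all 12 other settings, 30 with every single array left out and 34 with a replicate block. Averaging, 1 of the 12, takes in probe sets at or near the floor for Mxd1, Mxi1, Mxd4 and Mnt. That shrinks their changes by itself, so calls lost under averaging were lost at least partly by construction. Counts of called genes changed by over 1.5 times as follows. For germinal center day 40 against follicular cells, 1 became 2 with arrays shifted to the same median, with averaged probe sets, or with probe set 1422970_at or 1448878_at of Mxd3 or 1455104_at of Mxd1, and 4 with no minimum change. For marginal zone against follicular cells, 2 became 1 with the mean of probe sets or with 1422574_at of Mxd4. Between the days, the count in germinal center cells went from 1 to 0 with the mean of probe sets and 2 with array weights, and in memory cells from 0 to 2 with array weights or no minimum change and 1 with 1455104_at. The interaction count went from 0 to 1 with the mean of probe sets, array weights or 1455104_at. For germinal center day 7 cells against follicular cells 1 became 2 with array weights or 1448878_at and 3 with no minimum change, and against memory cells 3 became 5 with no minimum change. For memory day 40 against follicular cells 1 became 2 with 1455104_at. One change reversed, Mxd1 in germinal center day 40 against follicular cells, 1.31 on 1455104_at. The cause was not tested.

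With each array left out, counts ran from 3 to 4 for stimulated, 1 to 3 for marginal zone, 1 to 2 for germinal center day 7 and 1 to 2 for germinal center day 40 against follicular cells, 3 to 4 for germinal center against memory cells at both days, and 0 to 1 for memory cells between the days and for the interaction. They stayed at 2 for memory day 7, 1 for memory day 40 and 6 for plasma against follicular cells, 1 between germinal center days, 4 and 5 for plasma against memory and germinal center cells, and 6 over all groups.

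The labels do not say if replicate numbers pair the samples. After subtracting group means, in no comparison did all 3 same-numbered pairs correlate over 0.1 (range -0.496 to 0.445). In plasma against germinal center cells of day 7 these were 0.214, 0.329 and 0.0675, and 5 arrays correlated best with their own number. With 3 arrays per group this check cannot settle whether samples were paired. With the replicate block, stimulated against follicular cells had 4 called network genes, as without it, and 4446 genes called instead of 4405. The block also called Myc in marginal zone cells (1.78, adjusted p = 0.0344).

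Over all genes, memory cells between the days had 563 called, against 199 with only these groups in the fit, 908 with array weights and 1141 with no minimum change. Between germinal center days 665 became 425 with only these groups and 1008 with no minimum, and the interaction had 555 against 975 with array weights. With no minimum change, marginal zone went from 1237 to 1956, memory day 7 from 2060 to 3686, memory day 40 from 1543 to 2617, germinal center day 7 from 3474 to 5682 and day 40 from 3636 to 5796 against follicular cells, and germinal center against memory cells from 2655 to 4672 at day 7 and from 3128 to 5298 at day 40.

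The floor of 2.15 limits how far any fall can be measured.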
